A study of Homo sapiens with 24 samples.

Results

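The genes described here are 37 genes of homologous recombination and the Fanconi anemia pathway, followed in 3 human leukemia cell lines given cyclocreatine or vehicle. They were listed by symbol for their known roles, though with earlier results of these data known. RAD52 was singled out because its rise in every line was already known. Each symbol was matched exactly against the 25728 symbols of the count tables. All 37 were found, and all 37 passed the filter on low counts.

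The series compares TF-1, UT-7 and UCSD-AML1, which its design text describes as acute myeloid leukemia lines driven by EVI1, the zinc finger protein encoded by MECOM. Each line received 3 mM cyclocreatine, a creatine analog that creatine kinases phosphorylate, or vehicle, for 24 h. There were 4 libraries in each of the 6 groups, and the labels name no genetic change made to the lines. Each group therefore models 1 established line at 1 dose and 1 time. The sources used here do not say if replicate libraries stem from cultures grown apart. P-values therefore measure the spread between these libraries only, which may be technical. The fit held 1 spread per gene, shared by all 6 groups. Standard errors and p-values given for a line thus also rest on libraries of the other lines.

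Library totals ran from 12794998 to 21200662 counts. The smallest summed count of a member over the 4 libraries of a group was 260, for RAD51B in TF-1 vehicle, and the largest was 12238, for NBN in TF-1 cyclocreatine. The erythroid factor gene KLF1 averaged 207 CPM in TF-1 vehicle and 208 CPM in UT-7 vehicle. UCSD-AML1 vehicle held KLF1 at 0.142 CPM, ALAS2 at 0, and MECOM at 412 CPM, where TF-1 held 13.03 and UT-7 6.34. Of the myeloid genes, SPI1 averaged 94.3 to 144 CPM and CD33 51.1 to 142.5 CPM over the lines, and MPO averaged under 1 CPM. Markers of other cell types were not all absent: the B cell gene MS4A1 was at 0 in all vehicle libraries, but CD79A averaged 36.8 CPM in UCSD-AML1, 2.38 for TF-1 and 0.782 for UT-7. Stromal COL1A2 was at 0 in the vehicle libraries, and COL1A1 averaged 1.84 CPM in UCSD-AML1, 0.975 for TF-1 and 0 for UT-7. Epithelial KRT8 averaged 42.98 CPM in TF-1 and 16.5 in UCSD-AML1, and CDH1 22.01 CPM in UT-7. The part of these genes in the results was not tested. Tests were two-sided and used edgeR's quasi-likelihood fit over 14588 genes. TF-1 cyclocreatine replicate 1 was the lowest of its 4 libraries for 19 of the 37 members and the highest for 6. It also lay apart over the well counted genes in general. Its pairs with the other TF-1 cyclocreatine libraries had a chi-square per degree of freedom of 15.8 to 19.3. Pairs among those others had 3.01 to 3.96, and no pair of another group passed 4.04. All TF-1 treated values include this library unless it is said to be left out. UT-7 vehicle replicate 3 was the lowest of its group for 17, and UCSD-AML1 cyclocreatine replicate 1 the highest of its group for 16. The chi-square per degree of freedom was 2.77 to 4.04 for TF-1 vehicle pairs and 1.29 to 3.78 for pairs of the other lines. Replicates of TF-1 thus tended to lie further apart, but the shared spread of the fit makes no allowance for this.

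Homologous recombination repairs broken DNA from an intact sister copy. The broken end is trimmed back, a protein filament is built on the single strand with the help of BRCA2, PALB2 and the genes of the XRCC2 and XRCC3 group, the coated strand invades the sister, and the joined molecules are then dissolved or cut apart. The Fanconi pathway uses the same machinery at DNA crosslinks: a core complex places ubiquitin on FANCD2 and FANCI, and BRCA2, BRIP1 and PALB2 act after it. In blood-forming tissue the pathway is known for Fanconi anemia, in which its inherited loss leads to marrow failure and leukemia.

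Levels are given in CPM, counts scaled to library totals adjusted by TMM, and changes as log2 fold changes of cyclocreatine over vehicle with their standard error. A gene was called when its p, adjusted by the Benjamini-Hochberg method over all 14588 genes, was under 0.05. RNA was taken from whole cultures, so that a lower level in each cell and fewer cells that express a gene cannot be told apart. Levels of different members are compared only per kilobase of transcript.

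RAD52 stood apart from the rest of the list. Its protein anneals single strands and promotes a form of strand exchange that works without BRCA2. RAD52 in TF-1 was at 10.6, 9.34, 11.2 and 8.62 CPM with vehicle and 29.4, 26.97, 26.3 and 30.98 CPM with cyclocreatine. RAD52 in UT-7 was at 17.6, 15.8, 16.6 and 16.5 CPM with vehicle and 30.5, 30.8, 31.4 and 29.5 CPM with cyclocreatine. RAD52 in UCSD-AML1 was at 14.04, 15.5, 16.1 and 16.6 CPM with vehicle and 28.2, 31.1, 28.2 and 28.5 CPM with cyclocreatine. In every line all 4 treated libraries lay above all 4 vehicle libraries, and the treated levels of the 3 lines, 26.3 to 31.4 CPM, overlapped although TF-1 started lowest. The log2 fold change was 1.52 ± 0.08 for TF-1, 0.88 ± 0.08 for UT-7 and 0.90 ± 0.08 for UCSD-AML1. Since RAD52 was chosen for this rise, these values are a description and carry no test.

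Among the 37 members RAD52 ranked first for its log2 fold change in each line. The next highest member was FANCG at 0.63 in TF-1, BRCA2 at 0.55 in UT-7 and FANCG at 0.39 in UCSD-AML1. RAD52 exceeded the median of the other 36 members by 1.49 for TF-1, 1.01 for UT-7 and 0.93 for UCSD-AML1. Over all genes tested, 1.41% had a larger log2 fold change than RAD52 for TF-1, 4.62% for UT-7 and 3.21% for UCSD-AML1. Per kilobase of transcript, RAD52 moved from rank 25 of 37 to rank 9 in TF-1, from 22 to 9 in UT-7 and from 25 to 11 in UCSD-AML1. Across 14 other settings in each line its log2 fold change stayed between 1.44 and 1.58 in TF-1, 0.84 and 0.91 in UT-7, and 0.85 and 0.93 in UCSD-AML1.

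The RAD52 log2 fold change in TF-1 exceeded that in UT-7 by 0.64 ± 0.11 and that in UCSD-AML1 by 0.62 ± 0.11, and UT-7 minus UCSD-AML1 was -0.02 ± 0.11. These differences come from the same 3 fold changes and are likewise a description. The RAD52 transcript span overlaps that of ERC1, a gene of the cell cortex, and whether the counting used strand is not stated. ERC1 was lower in all 3 lines, at -0.27 ± 0.07, -0.16 ± 0.07 and -0.23 ± 0.06.

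**Figure D1:**
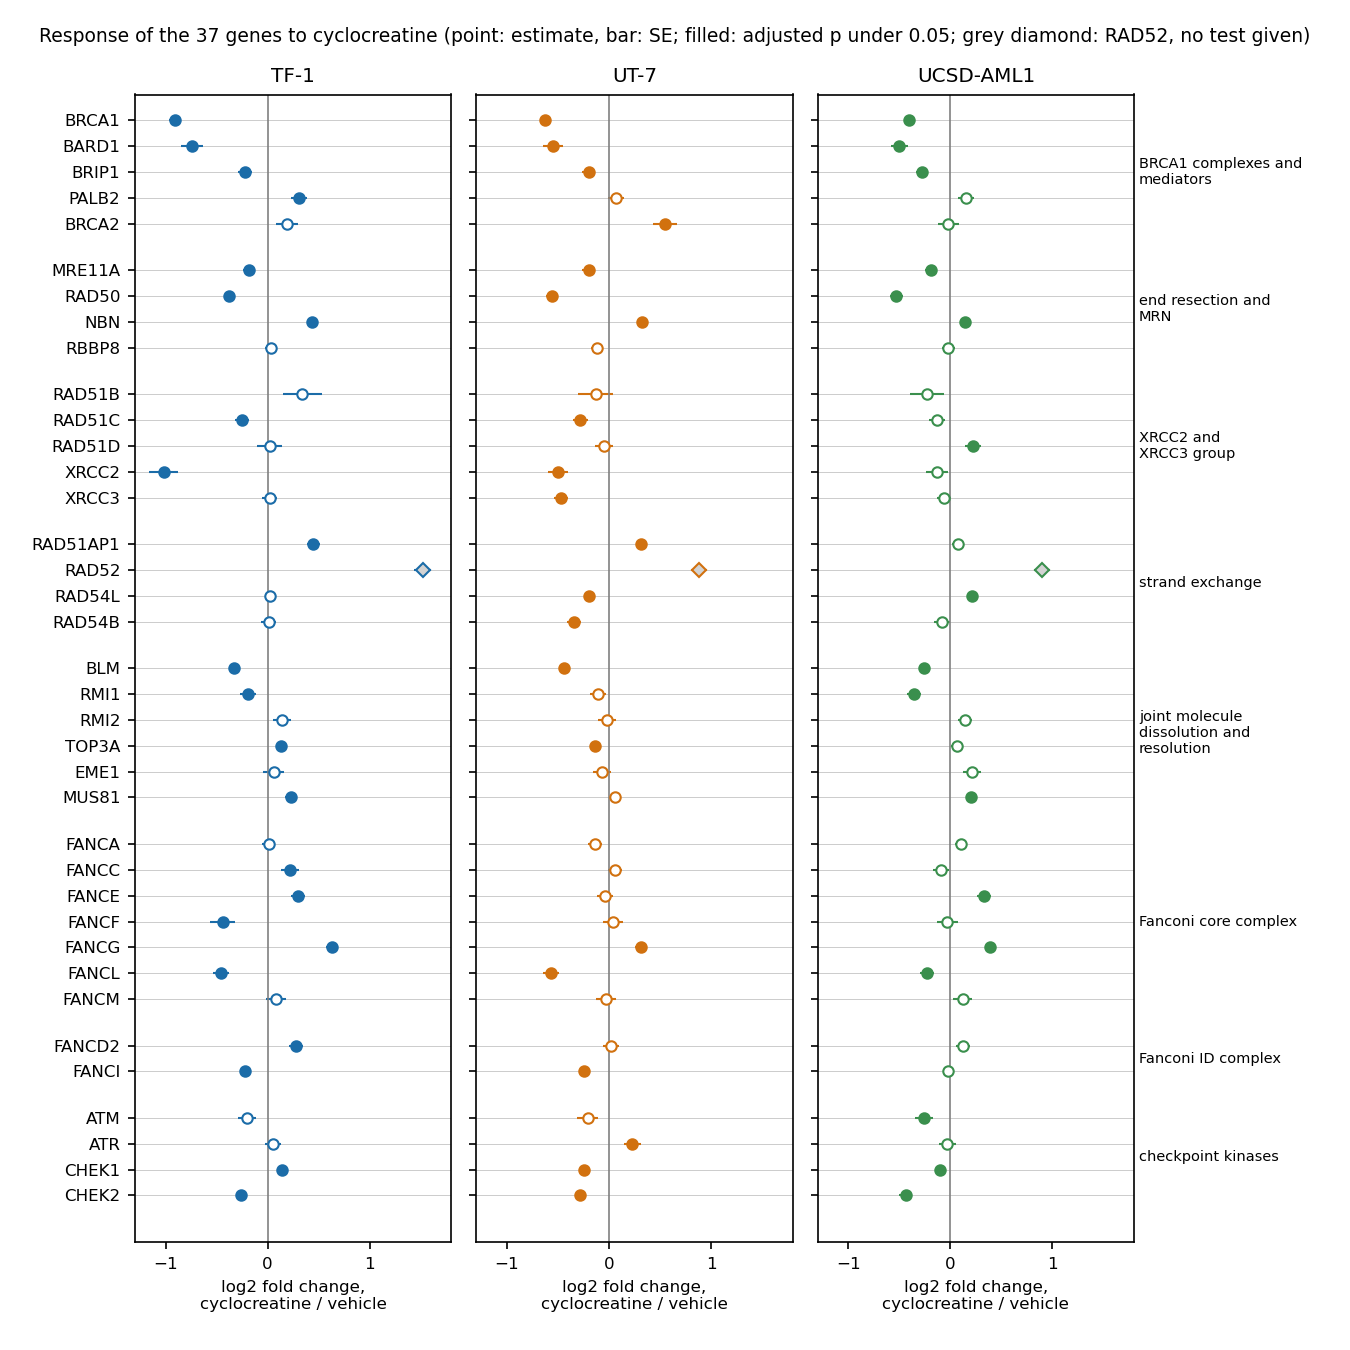
Log2 fold change of cyclocreatine over vehicle (x axis) for the 37 genes, grouped by role, in the 3 lines. Points are estimates and bars their standard errors, filled circles passed the test, and the grey diamond is RAD52, for which no test is given; it lies to the right of every other gene in each panel, at 1.52, 0.88 and 0.90.

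The other 36 members did not rise with RAD52 as a group. In TF-1, 10 of the 36 rose, 13 fell and 13 did not pass the test, with a median of 0.02. Over all genes, 56% were called in TF-1, 26.7% higher and 29.3% lower. In UT-7, 5 members rose, 16 fell and 15 did not pass, with a median of -0.13, beside 22.5% and 23.3% of all genes (45.9% in either direction). In UCSD-AML1, 6 rose, 11 fell and 19 did not pass, with a median of -0.03, beside 19.1% and 21.3% of all genes (40.5% in either direction). The median over all genes tested was -0.01, 0.00 and -0.00 in the same order. The list carries no test of its own. Without TF-1 cyclocreatine replicate 1 the TF-1 count was 13 higher and 10 lower, with the shares of all genes not given. Scaling by library totals gave 7 higher and 14 lower members in TF-1, and the share of all called genes that were higher there went from 47.7% to 36.5%.

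Non-overlap of libraries gave a like picture. In TF-1, 6 of the 36 members had all 4 treated libraries above all 4 vehicle libraries and 8 had them below, beside 19.3% and 21% of all genes. In UT-7 the numbers were 5 above and 18 below, beside 23.3% and 24.1%. In UCSD-AML1 they were 7 above and 11 below, beside 21.1% and 23.1%. The summed level of the 36 members in UT-7 was 1829 to 1910 CPM per library with vehicle and 1681 to 1755 CPM with cyclocreatine. In UCSD-AML1 it was 1856 to 1915 CPM and 1778 to 1840 CPM, with no overlap in either line. In TF-1 the sums overlapped, at 1466 to 1506 CPM with vehicle and 1376 to 1554 CPM with cyclocreatine.

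Of the 36 members, NBN and FANCG were called higher in all 3 lines, where 8.76% of all genes were. BRCA1, BARD1, BRIP1, MRE11A, RAD50, BLM, FANCL and CHEK2 were called lower in all 3 lines, which is 8 of 36 members where 8.97% of all genes were. Without TF-1 cyclocreatine replicate 1 that number was 6, without BRIP1 and MRE11A. RBBP8, RAD51B, RMI2, EME1, FANCA and FANCM passed the test in no line, though each did so under some other setting. RBBP8 and FANCA were lower in UT-7 under library totals (adjusted p = 0.0297 and 0.0296) and with UT-7 fitted alone (0.0229 and 0.0299). RMI2 and EME1 were higher with UCSD-AML1 fitted alone (adjusted p = 0.00659 and 0.0217), and EME1 also without UCSD-AML1 vehicle replicate 4 (0.0401). The calls of RAD51B and FANCM without 1 library are given below. RAD54L, TOP3A and CHEK1 were called in opposite directions in different lines.

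Promoters of 4 members that moved the same way in every line are shown, so that 3 that fell and 1 that rose can be set side by side for the letters of an E2F-like site. E2F factors drive genes of DNA replication and repair as cells enter S phase. A promoter window of 250 bases before to 50 bases after the start was matched in RefSeq (GRCh38.p14) for 33 of the 37 members. The E2F-like letters searched, on both strands and read together, were TTCCCGC first, then the form TTGGCGC, then the form TTCGCGC and lastly the form TTGCCGC. The letters CCAAT, and TTTGAA of the cell cycle element, were searched in the same way. On the other strand TTGGCGC ends in CCAA and so can share letters with a CCAAT match. The E2F-like letters were in 19 of the 33 windows (57.6%), beside 13% of all 35116 promoters in the table and 16.1% of the 22199 promoters of coding genes. CCAAT was in 45.5% of the member windows, beside 34.6% of all and 34.7% of coding promoters. TTTGAA was in 3.03%, beside 15.2% and 12.4%. None of these shares takes account of the base composition of the windows. In the 250 bases before the start alone, the E2F-like letters were in 11 of 33 member windows (33.3%), beside 10.9% of all. The 250 bases before the start are printed for 4 members, 5′ to 3′ on the gene's strand, with E2F-like and CCAAT letters in capitals on either strand.
BRCA1 (chr17:43125365-43125614, minus strand, lower in all lines): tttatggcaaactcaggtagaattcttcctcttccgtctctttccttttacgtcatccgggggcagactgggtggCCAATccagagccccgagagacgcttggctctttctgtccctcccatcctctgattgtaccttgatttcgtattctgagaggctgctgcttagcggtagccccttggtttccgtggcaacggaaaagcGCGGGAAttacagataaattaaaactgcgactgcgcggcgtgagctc
BLM (chr15:90717096-90717345, plus strand, lower in all lines): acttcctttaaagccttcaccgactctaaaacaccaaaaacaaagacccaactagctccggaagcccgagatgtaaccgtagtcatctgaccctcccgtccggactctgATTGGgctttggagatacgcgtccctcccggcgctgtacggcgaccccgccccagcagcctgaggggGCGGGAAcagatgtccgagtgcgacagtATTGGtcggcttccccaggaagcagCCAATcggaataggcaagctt
CHEK2 (chr22:28741821-28742070, minus strand, lower in all lines): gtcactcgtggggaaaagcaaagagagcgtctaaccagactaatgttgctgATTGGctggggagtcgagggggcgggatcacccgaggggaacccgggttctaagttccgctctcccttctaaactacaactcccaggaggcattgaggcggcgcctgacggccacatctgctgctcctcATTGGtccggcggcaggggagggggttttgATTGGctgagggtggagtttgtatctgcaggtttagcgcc
FANCG (chr9:35079943-35080192, minus strand, higher in all lines): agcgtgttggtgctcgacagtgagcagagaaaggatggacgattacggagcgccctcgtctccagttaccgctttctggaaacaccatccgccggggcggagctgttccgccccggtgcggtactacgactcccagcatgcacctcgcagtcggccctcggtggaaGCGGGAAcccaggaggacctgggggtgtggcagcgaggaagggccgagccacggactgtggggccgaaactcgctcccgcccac
BRCA1 and BLM, which fell, and FANCG, which rose, each hold the letters GCGGGAA, the reverse complement of TTCCCGC, and CHEK2 holds CCAAT letters only in this stretch. Of the 19 members with E2F-like letters in the 300-base window, 6 were called higher and 8 lower in TF-1, 2 higher and 9 lower in UT-7, and 4 higher and 6 lower in UCSD-AML1. Of the 13 matched members without them, other than RAD52, 3 were higher and 4 lower in TF-1, 2 higher and 5 lower in UT-7, and 1 higher and 5 lower in UCSD-AML1. Over all genes tested the shares called higher and lower were 26.7% and 29.3% in TF-1, 22.5% and 23.3% in UT-7, and 19.1% and 21.3% in UCSD-AML1, and nothing is read from these small subsets. A match of letters describes the window and is not a site of binding. The RAD52 window is not printed: only 1 of its 4 RefSeq-linked GENCODE transcripts starts inside it. A like limit holds for other windows counted above: 0 of 3 such starts were inside for RAD51B, 0 of 1 for ATM, 1 of 4 for CHEK1 and 1 of 3 for FANCC.

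Of the 5 genes of the BRCA1 complexes and mediators, 3 fell in each line, while 1 rose in TF-1 and 1 in UT-7. Over all genes, 29.3% fell and 26.7% rose in TF-1, 23.3% and 22.5% in UT-7, and 21.3% and 19.1% in UCSD-AML1. BRCA1, an E3 ubiquitin ligase that steers breaks toward recombination, had the largest fall among the 5 in TF-1 and UT-7. TF-1 libraries held BRCA1 at 60.1, 61.2, 56.9 and 58.4 CPM with vehicle and 31.2, 28.9, 35.2 and 30.5 CPM with cyclocreatine. UT-7 libraries held BRCA1 at 113, 104, 104 and 113 CPM with vehicle and 66.9, 68.9, 77.1 and 67.8 CPM with cyclocreatine. UCSD-AML1 libraries held BRCA1 at 109, 109, 113 and 107 CPM with vehicle and 87.2, 80.2, 85.3 and 77.9 CPM with cyclocreatine. No treated library reached a vehicle library in any line. BRCA1 had log2 fold changes of -0.91 ± 0.06 for TF-1 (adjusted p = 2.36e-16), -0.63 ± 0.05 for UT-7 (adjusted p = 7.14e-13) and -0.41 ± 0.05 for UCSD-AML1 (adjusted p = 2.23e-08). NBR2, a noncoding RNA gene that starts beside BRCA1 and runs the other way, was lower in TF-1 at -0.82 ± 0.17 and UT-7 at -0.50 ± 0.14, and stood at -0.26 ± 0.17 in UCSD-AML1, where it did not pass.

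BARD1 is the obligate partner of BRCA1 in the ligase. TF-1 libraries held BARD1 at 12.9, 16.2, 15.3 and 15.8 CPM with vehicle and 5.63, 10.5, 9.92 and 10.03 CPM with cyclocreatine. UT-7 libraries held BARD1 at 20.4, 19.2, 18.1 and 19.8 CPM with vehicle and 13.2, 14.2, 12.4 and 13.1 CPM with cyclocreatine. UCSD-AML1 libraries held BARD1 at 44.2, 42.6, 48.8 and 41.99 CPM with vehicle and 31.4, 31.3, 31.7 and 31.5 CPM with cyclocreatine. The groups did not overlap in any line, and the lowest TF-1 value was that of cyclocreatine replicate 1. BARD1 had log2 fold changes of -0.74 ± 0.11 for TF-1 (adjusted p = 3.94e-07), -0.55 ± 0.10 for UT-7 (adjusted p = 3.27e-05) and -0.50 ± 0.08 for UCSD-AML1 (adjusted p = 8.29e-06).

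BRIP1 is the helicase that binds the BRCA1 repeats. TF-1 libraries held BRIP1 at 28.4, 25.7, 22.8 and 25.1 CPM with vehicle and 18.03, 21.7, 23.7 and 24.1 CPM with cyclocreatine. UT-7 libraries held BRIP1 at 53.2, 50.2, 51.5 and 54.1 CPM with vehicle and 43.4, 49.2, 46.04 and 43.4 CPM with cyclocreatine. UCSD-AML1 libraries held BRIP1 at 65.1, 69.3, 71.02 and 65.5 CPM with vehicle and 57.1, 55.7, 55.7 and 53.9 CPM with cyclocreatine. The TF-1 groups overlapped and the others did not. BRIP1 had log2 fold changes of -0.22 ± 0.07 for TF-1 (adjusted p = 0.0111), -0.20 ± 0.06 for UT-7 (adjusted p = 0.0102) and -0.28 ± 0.06 for UCSD-AML1 (adjusted p = 0.000244). The TF-1 call was lost without vehicle replicate 1 (adjusted p = 0.073) or without cyclocreatine replicate 1 (-0.13, adjusted p = 0.0879), and with TF-1 fitted alone (adjusted p = 0.1).

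BRCA2, which acts as a mediator of strand exchange, moved apart from the BRCA1 partners. TF-1 libraries held BRCA2 at 26.6, 22.03, 21.1 and 22.8 CPM with vehicle and 17.97, 26.2, 32.2 and 28.99 CPM with cyclocreatine. UT-7 libraries held BRCA2 at 18.8, 19.2, 15.8 and 17.3 CPM with vehicle and 24.3, 25.97, 30.3 and 23.4 CPM with cyclocreatine. UCSD-AML1 libraries held BRCA2 at 46.6, 48.3, 45.4 and 48.9 CPM with vehicle and 50.97, 44.1, 46.2 and 45.1 CPM with cyclocreatine. Only in UT-7 did all treated libraries lie above all vehicle libraries. BRCA2 had log2 fold changes of 0.19 ± 0.11 for TF-1 (adjusted p = 0.164), 0.55 ± 0.12 for UT-7 (adjusted p = 0.000443) and -0.02 ± 0.10 for UCSD-AML1 (adjusted p = 0.912). TF-1 cyclocreatine replicate 1 held the lowest BRCA2 level in TF-1, and without it the TF-1 value was 0.33 (adjusted p = 0.000222). PALB2, which links BRCA1 to BRCA2, rose in TF-1, at 0.31 ± 0.08 (adjusted p = 0.000969), with overlapping groups, and stood at 0.07 ± 0.08 in UT-7 and 0.15 ± 0.08 in UCSD-AML1, neither past the test.

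The MRN complex trims broken ends and recruits ATM, and of its 3 genes RAD50 and MRE11A fell while NBN rose in every line. RAD50 is the long coiled-coil subunit that tethers ends. TF-1 libraries held RAD50 at 91.2, 88.7, 84.8 and 92.02 CPM with vehicle and 58.4, 70, 69.5 and 75.1 CPM with cyclocreatine. UT-7 libraries held RAD50 at 76.2, 76.3, 70.8 and 77.97 CPM with vehicle and 49.1, 50.6, 54.5 and 49.5 CPM with cyclocreatine. UCSD-AML1 libraries held RAD50 at 58.96, 54.2, 59.2 and 55.4 CPM with vehicle and 39.2, 38.5, 38.6 and 41.6 CPM with cyclocreatine. Treated and vehicle libraries were apart in all 3 lines, with the treated ones lower. RAD50 had log2 fold changes of -0.38 ± 0.05 for TF-1 (adjusted p = 1.81e-07), -0.56 ± 0.06 for UT-7 (adjusted p = 1.96e-10) and -0.53 ± 0.06 for UCSD-AML1 (adjusted p = 2.97e-09).

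MRE11A is the nuclease of the complex. TF-1 libraries held MRE11A at 70.1, 75.6, 72.2 and 71.4 CPM with vehicle and 55.2, 69.4, 68.8 and 63.02 CPM with cyclocreatine. UT-7 libraries held MRE11A at 74.95, 71.4, 72.5 and 72.9 CPM with vehicle and 57.9, 63.7, 69.5 and 62.95 CPM with cyclocreatine. UCSD-AML1 libraries held MRE11A at 76.8, 76.9, 82.95 and 80.3 CPM with vehicle and 69.2, 74.9, 70.02 and 63.7 CPM with cyclocreatine. All treated libraries were below the vehicle libraries, by a small margin in each line. MRE11A had log2 fold changes of -0.18 ± 0.06 for TF-1 (adjusted p = 0.00966), -0.20 ± 0.06 for UT-7 (adjusted p = 0.00551) and -0.19 ± 0.06 for UCSD-AML1 (adjusted p = 0.00796). The TF-1 call was lost without cyclocreatine replicate 1 (-0.11, adjusted p = 0.0505) and with TF-1 fitted alone (adjusted p = 0.0654), and the UCSD-AML1 call without cyclocreatine replicate 4 (adjusted p = 0.0536). The MRE11A span overlaps that of ANKRD49, which was lower in UT-7, at -0.37 ± 0.09. ANKRD49 stood at -0.15 ± 0.09 in TF-1 and -0.20 ± 0.09 in UCSD-AML1 without passing, and the part of overlap reads was not tested.

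NBN carries the complex into the nucleus and binds ATM. TF-1 libraries held NBN at 141, 140, 146 and 138 CPM with vehicle and 161, 198, 208 and 197 CPM with cyclocreatine. UT-7 libraries held NBN at 176, 162, 157 and 173 CPM with vehicle and 199.9, 212, 208 and 213 CPM with cyclocreatine. UCSD-AML1 libraries held NBN at 149.5, 152, 160.2 and 145 CPM with vehicle and 174, 169, 169 and 159 CPM with cyclocreatine. Treated libraries were above vehicle libraries in TF-1 and UT-7, and in UCSD-AML1 the lowest treated library was under the highest vehicle library. NBN had log2 fold changes of 0.44 ± 0.05 for TF-1 (adjusted p = 4.95e-09), 0.32 ± 0.05 for UT-7 (adjusted p = 2.63e-06) and 0.14 ± 0.05 for UCSD-AML1 (adjusted p = 0.0245). The UCSD-AML1 call was lost without any 1 of 5 libraries, vehicle replicates 1 and 4 and cyclocreatine replicates 1, 2 and 3 (adjusted p = 0.053 to 0.0822). RBBP8, the resection factor CtIP, did not pass in TF-1 (0.03 ± 0.06), UT-7 (-0.12 ± 0.06) or UCSD-AML1 (-0.02 ± 0.06).

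**Figure D2:**
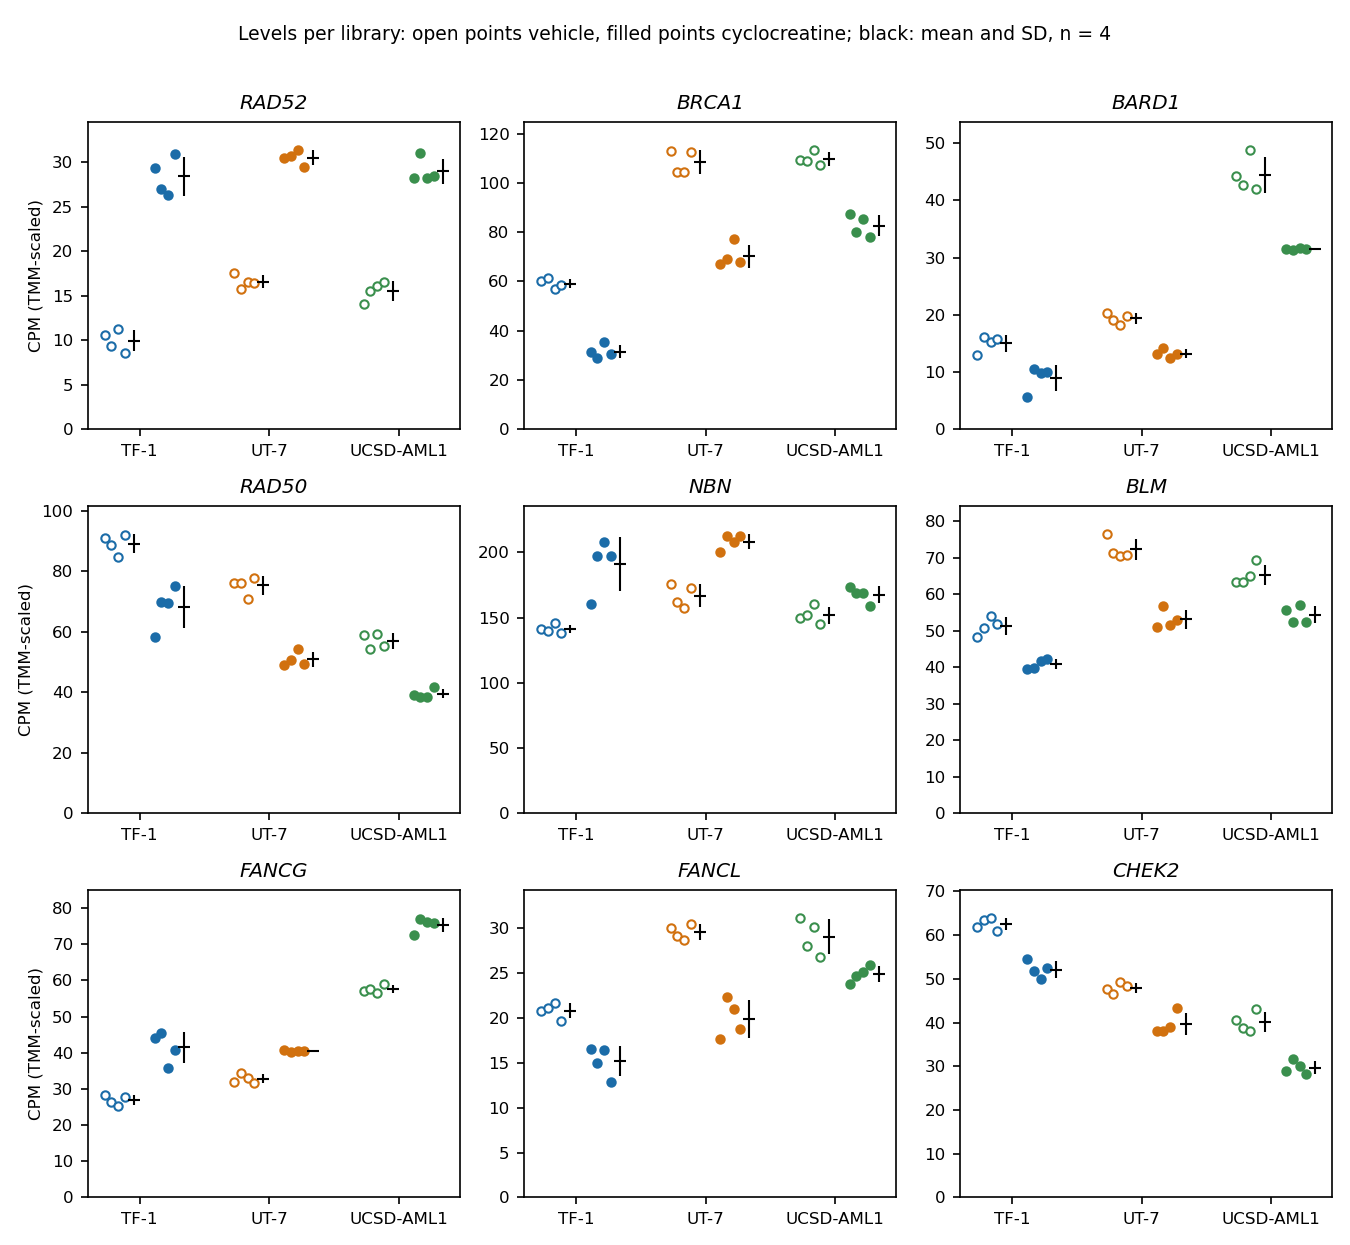
CPM in each library (y axis, from 0) by line for RAD52 and 8 members called the same way in all lines. Open points are vehicle, filled points cyclocreatine, and black marks the mean and SD of 4 libraries; treated points sit above vehicle points for RAD52 and FANCG in every line and below them for BRCA1, BARD1, RAD50, BLM, FANCL and CHEK2.

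Among RAD51B, RAD51C, RAD51D, XRCC2 and XRCC3, related genes whose proteins work in complexes in recombination, 2 of 5 fell in TF-1 and 3 of 5 in UT-7, while 1 of 5 rose in UCSD-AML1. Of all genes tested, 29.3% fell in TF-1 and 23.3% in UT-7, and 19.1% rose in UCSD-AML1. XRCC2 in TF-1 gave the deepest fall of the 36 members. TF-1 libraries held XRCC2 at 8.75, 10.4, 6.91 and 9.04 CPM with vehicle and 2.53, 4.68, 5.21 and 4.84 CPM with cyclocreatine. UT-7 libraries held XRCC2 at 27.3, 28.9, 26.4 and 30.4 CPM with vehicle and 18.8, 21.3, 21.5 and 18.5 CPM with cyclocreatine. UCSD-AML1 libraries held XRCC2 at 13.2, 13.9, 13.4 and 15.9 CPM with vehicle and 12.9, 13.99, 12.3 and 12.2 CPM with cyclocreatine. Groups were apart in TF-1 and UT-7 and overlapped in UCSD-AML1, and the smallest TF-1 value was again cyclocreatine replicate 1. XRCC2 had log2 fold changes of -1.02 ± 0.14 for TF-1 (adjusted p = 1.06e-07), -0.50 ± 0.10 for UT-7 (adjusted p = 7.57e-05) and -0.13 ± 0.11 for UCSD-AML1 (adjusted p = 0.366). The fall in TF-1 rested on 277 counts over the 4 treated libraries.

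XRCC3, the partner of RAD51C, moved in 1 line only by the test of each line. TF-1 libraries held XRCC3 at 39.8, 42.3, 45.9 and 41.8 CPM with vehicle and 47.6, 44.5, 41.7 and 38.9 CPM with cyclocreatine. UT-7 libraries held XRCC3 at 51.4, 55.4, 55.6 and 56.4 CPM with vehicle and 37.9, 38.1, 36.02 and 45.3 CPM with cyclocreatine. UCSD-AML1 libraries held XRCC3 at 42.3, 42.5, 42.3 and 46.8 CPM with vehicle and 44.2, 39.9, 40.7 and 42.1 CPM with cyclocreatine. UT-7 groups were apart and the other groups overlapped. XRCC3 had log2 fold changes of 0.02 ± 0.07 for TF-1 (adjusted p = 0.804), -0.47 ± 0.07 for UT-7 (adjusted p = 1.49e-07) and -0.06 ± 0.07 for UCSD-AML1 (adjusted p = 0.525). Its span overlaps that of KLC1, a motor protein gene, which stood at -0.19 ± 0.04 for TF-1, -0.11 ± 0.05 for UT-7 and -0.02 ± 0.04 for UCSD-AML1.

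RAD51C fell in TF-1, at -0.25 ± 0.07 (adjusted p = 0.00387), and in UT-7, at -0.28 ± 0.07 (adjusted p = 0.00211), and stood at -0.13 ± 0.08 in UCSD-AML1 without passing. RAD51D rose in UCSD-AML1, at 0.22 ± 0.08 (adjusted p = 0.0198), a call lost without any 1 of 4 libraries, vehicle replicates 2 and 4 and cyclocreatine replicates 1 and 4 (adjusted p = 0.0509 to 0.0757), and stood at 0.02 ± 0.12 in TF-1 and -0.05 ± 0.09 in UT-7. RAD51B, the member with the fewest counts, passed in no line, with 0.34 ± 0.19, -0.13 ± 0.17 and -0.23 ± 0.17. Without TF-1 vehicle replicate 4 or cyclocreatine replicate 3 it was called higher in TF-1, at 0.57 (adjusted p = 0.0131) and 0.46 (adjusted p = 0.0437).

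Of the 3 strand exchange factors grouped with RAD52, RAD51AP1 also rose, in TF-1 and UT-7. RAD51AP1 stimulates the formation of joint molecules. TF-1 libraries held RAD51AP1 at 41.95, 35.9, 39 and 33.95 CPM with vehicle and 51.4, 47.7, 54.5 and 51.6 CPM with cyclocreatine. UT-7 libraries held RAD51AP1 at 86.7, 87.01, 84.3 and 89.1 CPM with vehicle and 107, 106, 105 and 111.7 CPM with cyclocreatine. UCSD-AML1 libraries held RAD51AP1 at 66.2, 64.04, 62.7 and 64.1 CPM with vehicle and 67.2, 63.2, 72.2 and 67.96 CPM with cyclocreatine. Treated libraries were above vehicle libraries in TF-1 and UT-7 and overlapped them in UCSD-AML1. RAD51AP1 had log2 fold changes of 0.45 ± 0.06 for TF-1 (adjusted p = 1.12e-08), 0.31 ± 0.05 for UT-7 (adjusted p = 2.92e-06) and 0.07 ± 0.05 for UCSD-AML1 (adjusted p = 0.286).

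RAD54L, the motor protein that remodels joint molecules, fell in UT-7 and rose in UCSD-AML1. TF-1 libraries held RAD54L at 55.1, 54.3, 56.6 and 55.9 CPM with vehicle and 54.4, 55.9, 53.7 and 60.3 CPM with cyclocreatine. UT-7 libraries held RAD54L at 64.6, 73.3, 68.7 and 71.04 CPM with vehicle and 60.6, 61.04, 59.1 and 60.7 CPM with cyclocreatine. UCSD-AML1 libraries held RAD54L at 46.3, 48.6, 46.3 and 45.9 CPM with vehicle and 54.6, 53.5, 54.6 and 53.7 CPM with cyclocreatine. The treated libraries were all below the vehicle libraries in UT-7 and all above them in UCSD-AML1. RAD54L had log2 fold changes of 0.02 ± 0.05 for TF-1 (adjusted p = 0.785), -0.20 ± 0.05 for UT-7 (adjusted p = 0.000506) and 0.21 ± 0.05 for UCSD-AML1 (adjusted p = 0.000501). Its span overlaps that of LRRC41, a ubiquitin ligase adaptor gene with more counts, which rose in all 3 lines, at 0.59 ± 0.03, 0.64 ± 0.03 and 0.48 ± 0.03; the part of overlap reads in the RAD54L values was not tested. RAD54B, a related motor gene, fell in UT-7, at -0.34 ± 0.07 (adjusted p = 0.000217), and stood at 0.01 ± 0.07 in TF-1 and -0.08 ± 0.08 in UCSD-AML1.

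BLM is the helicase of the complex that dissolves double Holliday junctions. TF-1 libraries held BLM at 48.3, 50.7, 54.1 and 51.9 CPM with vehicle and 39.5, 39.8, 41.8 and 42.3 CPM with cyclocreatine. UT-7 libraries held BLM at 76.5, 71.4, 70.4 and 70.7 CPM with vehicle and 50.9, 56.8, 51.7 and 53 CPM with cyclocreatine. UCSD-AML1 libraries held BLM at 63.3, 63.3, 65.1 and 69.3 CPM with vehicle and 55.7, 52.4, 57.04 and 52.4 CPM with cyclocreatine. The groups were apart in every line, treated ones lower. BLM had log2 fold changes of -0.33 ± 0.05 for TF-1 (adjusted p = 1.51e-06), -0.44 ± 0.05 for UT-7 (adjusted p = 2.41e-09) and -0.26 ± 0.05 for UCSD-AML1 (adjusted p = 4.91e-05).

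TOP3A, the topoisomerase that works with BLM, changed by small amounts. TF-1 libraries held TOP3A at 44.2, 41.5, 43.8 and 43.3 CPM with vehicle and 44.1, 50.3, 48.6 and 46.7 CPM with cyclocreatine. UT-7 libraries held TOP3A at 46.8, 49.02, 47.1 and 47.1 CPM with vehicle and 43.96, 43, 42.1 and 43.8 CPM with cyclocreatine. UCSD-AML1 libraries held TOP3A at 55.3, 57.4, 55.7 and 52.2 CPM with vehicle and 55.3, 58.9, 59.6 and 56.4 CPM with cyclocreatine. UT-7 groups were apart, and TF-1 and UCSD-AML1 groups overlapped. TOP3A had log2 fold changes of 0.13 ± 0.05 for TF-1 (adjusted p = 0.0232), -0.14 ± 0.05 for UT-7 (adjusted p = 0.0263) and 0.06 ± 0.05 for UCSD-AML1 (adjusted p = 0.341). The TF-1 call was lost without vehicle replicate 2, cyclocreatine replicate 2 or cyclocreatine replicate 3 (adjusted p = 0.0551 to 0.0915) and under scaling by library totals (0.05, adjusted p = 0.374), with no filter (adjusted p = 0.0513) or with TF-1 fitted alone (adjusted p = 0.117), and the UT-7 call without vehicle replicate 2, cyclocreatine replicate 2 or cyclocreatine replicate 3 (adjusted p = 0.0512 to 0.0818).

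The BLM partner RMI1 fell in TF-1, at -0.19 ± 0.08 (adjusted p = 0.0427), and in UCSD-AML1, at -0.36 ± 0.07 (adjusted p = 0.000107), and stood at -0.11 ± 0.08 in UT-7. Its span overlaps that of HNRNPK, a gene with more counts, which was lower in TF-1, UT-7 and UCSD-AML1, at -0.15 ± 0.03, -0.23 ± 0.03 and -0.21 ± 0.03. The part of overlap reads in the RMI1 values was not tested. The TF-1 call of RMI1 was lost without cyclocreatine replicate 1 (-0.08, adjusted p = 0.326), vehicle replicate 1 (adjusted p = 0.0867) or vehicle replicate 4 (adjusted p = 0.114), and with TF-1 fitted alone (adjusted p = 0.161). RMI2 passed in no line, with 0.14 ± 0.09, -0.02 ± 0.09 and 0.14 ± 0.07. The resolving nuclease gene MUS81 rose in TF-1, at 0.23 ± 0.06 (adjusted p = 0.000726), and in UCSD-AML1, at 0.20 ± 0.05 (adjusted p = 0.00249), and stood at 0.06 ± 0.05 in UT-7. Its partner EME1 passed in no line, with 0.06 ± 0.10, -0.07 ± 0.09 and 0.21 ± 0.09.

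In the Fanconi core complex 3 of 7 genes rose and 2 fell in TF-1, 1 rose and 1 fell in UT-7, and 2 rose and 1 fell in UCSD-AML1. Shares of all genes higher and lower were 26.7% and 29.3% in TF-1, 22.5% and 23.3% in UT-7, and 19.1% and 21.3% in UCSD-AML1. FANCG, a scaffold subunit, was the second highest member after RAD52 in TF-1 and UCSD-AML1. TF-1 libraries held FANCG at 28.2, 26.4, 25.2 and 27.7 CPM with vehicle and 43.97, 45.5, 35.8 and 40.7 CPM with cyclocreatine. UT-7 libraries held FANCG at 31.98, 34.4, 32.98 and 31.8 CPM with vehicle and 40.9, 40.2, 40.5 and 40.6 CPM with cyclocreatine. UCSD-AML1 libraries held FANCG at 57.1, 57.7, 56.5 and 59.1 CPM with vehicle and 72.7, 77.05, 76.03 and 75.8 CPM with cyclocreatine. All treated libraries were above all vehicle libraries in every line. FANCG had log2 fold changes of 0.63 ± 0.06 for TF-1 (adjusted p = 1.85e-11), 0.31 ± 0.06 for UT-7 (adjusted p = 5.14e-05) and 0.39 ± 0.05 for UCSD-AML1 (adjusted p = 1.67e-07).

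FANCL is the subunit that carries the ubiquitin ligase activity. TF-1 libraries held FANCL at 20.8, 21.2, 21.7 and 19.6 CPM with vehicle and 16.5, 14.9, 16.4 and 12.9 CPM with cyclocreatine. UT-7 libraries held FANCL at 30.1, 29.1, 28.7 and 30.5 CPM with vehicle and 17.6, 22.4, 20.97 and 18.8 CPM with cyclocreatine. UCSD-AML1 libraries held FANCL at 31.2, 28.1, 30.1 and 26.8 CPM with vehicle and 23.8, 24.6, 25.1 and 25.96 CPM with cyclocreatine. The treated libraries were all below the vehicle libraries in each line. FANCL had log2 fold changes of -0.46 ± 0.08 for TF-1 (adjusted p = 6.55e-06), -0.57 ± 0.08 for UT-7 (adjusted p = 9.17e-08) and -0.23 ± 0.07 for UCSD-AML1 (adjusted p = 0.0127). The UCSD-AML1 call was lost without vehicle replicate 1 (-0.19, adjusted p = 0.0629). FANCE, which holds FANCD2 to the core, rose in TF-1, at 0.30 ± 0.07 (adjusted p = 0.000326), and in UCSD-AML1, at 0.33 ± 0.07 (adjusted p = 0.000432), and stood at -0.04 ± 0.08 in UT-7.

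FANCC rose in TF-1, at 0.22 ± 0.09 (adjusted p = 0.0287), a call lost without vehicle replicate 4 (adjusted p = 0.137) or cyclocreatine replicate 3 (adjusted p = 0.164) and under scaling by library totals (0.14, adjusted p = 0.164), limma-voom (adjusted p = 0.0504) or a fit of TF-1 alone (adjusted p = 0.114), and stood at 0.06 ± 0.07 in UT-7 and -0.09 ± 0.08 in UCSD-AML1. FANCF fell in TF-1, at -0.44 ± 0.12 (adjusted p = 0.00157), with overlapping groups, and stood at 0.04 ± 0.10 in UT-7 and -0.03 ± 0.10 in UCSD-AML1. FANCA, at 0.01 ± 0.06, -0.14 ± 0.07 and 0.10 ± 0.06, passed in no line, and so did the translocase gene FANCM, at 0.08 ± 0.10, -0.03 ± 0.10 and 0.12 ± 0.09. Without TF-1 cyclocreatine replicate 1 FANCM was called higher in TF-1, at 0.20 (adjusted p = 0.0403).

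FANCI and FANCD2 form the clamp that the core complex marks with ubiquitin. TF-1 libraries held FANCI at 97.3, 105, 97.6 and 89.1 CPM with vehicle and 75.3, 82.8, 85.8 and 89.2 CPM with cyclocreatine. UT-7 libraries held FANCI at 173, 169, 165 and 173 CPM with vehicle and 138, 138, 149 and 148 CPM with cyclocreatine. UCSD-AML1 libraries held FANCI at 164, 163, 161 and 159 CPM with vehicle and 164, 158, 161 and 155 CPM with cyclocreatine. UT-7 groups were apart, while in TF-1 and UCSD-AML1 they overlapped. FANCI had log2 fold changes of -0.22 ± 0.05 for TF-1 (adjusted p = 0.000101), -0.25 ± 0.04 for UT-7 (adjusted p = 1.74e-05) and -0.02 ± 0.04 for UCSD-AML1 (adjusted p = 0.771). The overlapping gene POLG, the mitochondrial DNA polymerase, rose in all 3 lines, at 0.50 ± 0.05, 0.59 ± 0.05 and 0.44 ± 0.05. FANCD2 rose in TF-1, at 0.28 ± 0.07 (adjusted p = 0.000706), with overlapping groups, and stood at 0.02 ± 0.08 in UT-7 and 0.12 ± 0.07 in UCSD-AML1. FANCD2 has partial copies in the genome that could share its reads, and so its level is less certain.

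The checkpoint kinases ATM and ATR sense breaks and stalled forks, and CHEK2 and CHEK1 carry their signals. TF-1 libraries held CHEK2 at 61.8, 63.5, 63.8 and 60.8 CPM with vehicle and 54.5, 51.7, 49.9 and 52.4 CPM with cyclocreatine. UT-7 libraries held CHEK2 at 47.6, 46.5, 49.3 and 48.5 CPM with vehicle and 38.1, 38, 38.98 and 43.3 CPM with cyclocreatine. UCSD-AML1 libraries held CHEK2 at 40.6, 38.8, 38.1 and 43.2 CPM with vehicle and 28.9, 31.6, 29.97 and 28.2 CPM with cyclocreatine. Each line had all treated libraries below all vehicle libraries. CHEK2 had log2 fold changes of -0.26 ± 0.05 for TF-1 (adjusted p = 4.02e-05), -0.28 ± 0.05 for UT-7 (adjusted p = 6.94e-05) and -0.44 ± 0.06 for UCSD-AML1 (adjusted p = 6.08e-08). Partial copies of CHEK2 elsewhere in the genome could share its reads.

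CHEK1 rose in TF-1 and fell in UT-7 and UCSD-AML1. TF-1 libraries held CHEK1 at 116, 116, 118 and 116 CPM with vehicle and 129, 138, 129 and 119.6 CPM with cyclocreatine. UT-7 libraries held CHEK1 at 107, 118, 114 and 108 CPM with vehicle and 94.8, 96.1, 91.1 and 94.1 CPM with cyclocreatine. UCSD-AML1 libraries held CHEK1 at 95.97, 98.1, 102 and 95.5 CPM with vehicle and 92.6, 92.5, 89.5 and 89.7 CPM with cyclocreatine. Groups were apart in each line, above vehicle in TF-1 and below it in the others. CHEK1 had log2 fold changes of 0.14 ± 0.04 for TF-1 (adjusted p = 0.00406), -0.25 ± 0.04 for UT-7 (adjusted p = 6.58e-06) and -0.10 ± 0.04 for UCSD-AML1 (adjusted p = 0.048). The TF-1 call was lost under scaling by library totals (0.06, adjusted p = 0.211), and the UCSD-AML1 call without any 1 of 7 libraries, all but vehicle replicate 4 (adjusted p = 0.0531 to 0.157), with no filter (adjusted p = 0.0855) and with the replicate block (adjusted p = 0.0702).

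ATM fell in UCSD-AML1, at -0.26 ± 0.09 (adjusted p = 0.0259), a call lost without any 1 of 4 libraries, vehicle replicates 2 and 4 and cyclocreatine replicates 3 and 4 (adjusted p = 0.0504 to 0.0767), with no filter (adjusted p = 0.0575) or with the replicate block (adjusted p = 0.0931), and stood at -0.20 ± 0.09 (adjusted p = 0.0762) in TF-1 and -0.21 ± 0.10 (adjusted p = 0.0708) in UT-7. DESeq2 called it lower in TF-1 (-0.22, adjusted p = 0.0307) and UT-7 (-0.22, adjusted p = 0.0313) too. The TF-1 fall also passed under library totals (adjusted p = 0.0246) or without vehicle replicate 2, vehicle replicate 3 or cyclocreatine replicate 4 (0.0251 to 0.0417). The UT-7 fall also passed with UT-7 fitted alone (adjusted p = 0.000672) or without vehicle replicate 3 (0.0379) or cyclocreatine replicate 3 (0.0448). ATR rose in UT-7, at 0.23 ± 0.08 (adjusted p = 0.0224), a call lost without vehicle replicate 3 (adjusted p = 0.0698) or cyclocreatine replicate 3 (adjusted p = 0.0793) and under scaling by library totals (0.19, adjusted p = 0.0728), and stood at 0.05 ± 0.08 in TF-1 and -0.03 ± 0.08 in UCSD-AML1. Without TF-1 cyclocreatine replicate 1, the lowest treated library for ATR at 31.4 CPM, the TF-1 value was 0.17 (adjusted p = 0.00806).

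Differences in response between lines were tested directly. Of the 36 members other than RAD52, 10 differed between TF-1 and UT-7 (27.5% of all genes did), 10 between TF-1 and UCSD-AML1 (29.1%) and 10 between UT-7 and UCSD-AML1 (23%). With only the lines of the pair fitted the second count was 6 and the third 19, and without TF-1 cyclocreatine replicate 1 the second was 16. The shares of all genes under these fits are not given. BRCA1 and RAD54L differed in all 3 pairs. BRCA1 had a difference of -0.28 ± 0.08 (adjusted p = 0.00503) for TF-1 minus UT-7, -0.50 ± 0.08 (adjusted p = 2.53e-06) for TF-1 minus UCSD-AML1 and -0.22 ± 0.07 (adjusted p = 0.0226) for UT-7 minus UCSD-AML1. The last of these was lost without any 1 of 6 libraries, UT-7 vehicle and cyclocreatine replicates 1 and 4 and UCSD-AML1 cyclocreatine replicates 1 and 3 (adjusted p = 0.0518 to 0.0624), and with the replicate block (adjusted p = 0.0539).

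CHEK1 responded differently in TF-1 than in UT-7, by 0.39 ± 0.06 (adjusted p = 4.15e-06), and than in UCSD-AML1, by 0.25 ± 0.06 (adjusted p = 0.00169). The XRCC3 fall in UT-7 set it apart from TF-1, by 0.50 ± 0.09 (adjusted p = 8.74e-05), and from UCSD-AML1, where UT-7 minus UCSD-AML1 was -0.42 ± 0.09 (adjusted p = 0.000793). RAD54L differed by -0.41 ± 0.07 (adjusted p = 1.15e-05) for UT-7 minus UCSD-AML1, 0.22 ± 0.07 (adjusted p = 0.0124) for TF-1 minus UT-7 and -0.19 ± 0.07 (adjusted p = 0.0277) for TF-1 minus UCSD-AML1. The last was lost without TF-1 cyclocreatine replicate 3 (adjusted p = 0.0563) or UCSD-AML1 vehicle replicate 4 (adjusted p = 0.0502). It was also lost with no filter (adjusted p = 0.0689) or with only the lines of the pair fitted (adjusted p = 0.0804). The XRCC2 response was lower in TF-1 than in UCSD-AML1, a difference of -0.88 ± 0.18 (adjusted p = 0.000233). Its difference between TF-1 and UT-7, -0.52 ± 0.17 (adjusted p = 0.0232), was lost without TF-1 cyclocreatine replicate 1 (-0.34, adjusted p = 0.0925) or TF-1 vehicle replicate 2 (adjusted p = 0.0691), and with only the lines of the pair fitted (adjusted p = 0.0585).

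The RAD51AP1 response was higher in TF-1 and in UT-7 than in UCSD-AML1, by 0.37 ± 0.08 (adjusted p = 0.000225) and 0.23 ± 0.07 (adjusted p = 0.0147). The BRCA2 response was higher in UT-7 than in UCSD-AML1, by 0.57 ± 0.16 (adjusted p = 0.00835). NBN rose more in TF-1 than in UCSD-AML1, by 0.29 ± 0.07 (adjusted p = 0.00227). FANCG rose more in TF-1 than in UT-7, by 0.32 ± 0.08 (adjusted p = 0.00391), and than in UCSD-AML1, by 0.24 ± 0.08 (adjusted p = 0.0215), the latter lost without TF-1 vehicle replicate 3 (adjusted p = 0.0582) or TF-1 cyclocreatine replicate 2 (adjusted p = 0.0622) and under scaling by library totals (0.16, adjusted p = 0.123). TOP3A responses in TF-1 exceeded those in UT-7 by 0.27 ± 0.07 (adjusted p = 0.00415). FANCI had a response difference of -0.23 ± 0.06 (adjusted p = 0.00688) for UT-7 minus UCSD-AML1. For TF-1 minus UT-7, RAD54B stood at 0.36 ± 0.10 (adjusted p = 0.00873) and FANCE at 0.34 ± 0.10 (adjusted p = 0.0114).

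Leaving out TF-1 cyclocreatine replicate 1 brought further response differences past the test. For TF-1 minus UT-7 these were FANCD2 at 0.36 (adjusted p = 6.82e-05), PALB2 at 0.29 (adjusted p = 0.0201), RAD50 at 0.25 (adjusted p = 0.0026), FANCA at 0.23 (adjusted p = 0.0285) and NBN at 0.19 (adjusted p = 0.00333). For TF-1 minus UCSD-AML1 they were BRCA2 at 0.36 (adjusted p = 0.00397), RMI1 at 0.28 (adjusted p = 0.00934), FANCD2 at 0.26 (adjusted p = 0.0011), RAD50 at 0.22 (adjusted p = 0.00997), ATR at 0.20 (adjusted p = 0.0398) and FANCL at -0.28 (adjusted p = 0.0374).

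**Figure D3:**
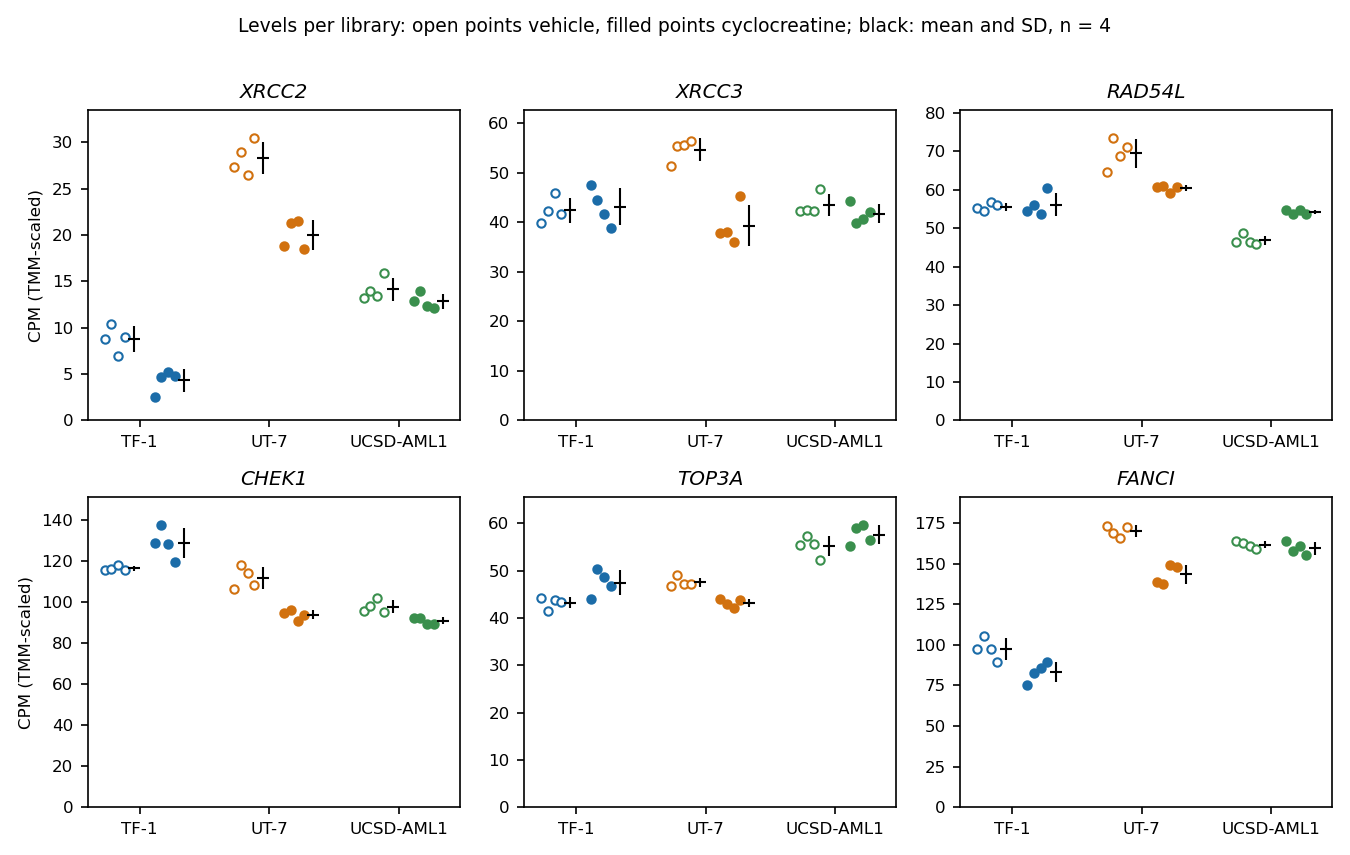
CPM in each library (y axis, from 0) by line for 6 members whose response differed between lines. Open points are vehicle, filled points cyclocreatine, and black marks the mean and SD of 4 libraries; RAD54L treated points lie below vehicle in UT-7 and above it in UCSD-AML1, and CHEK1 treated points lie above vehicle in TF-1 only.

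Before treatment the lines already differed in most members, as they did in most genes. In vehicle libraries TF-1 was lower than UT-7 for 25 of the 36 members and higher for 6, where 79.7% of all genes differed, 38.7% lower and 41% higher. TF-1 was lower than UCSD-AML1 for 24 and higher for 8, beside 43.3% and 40.6% of all genes (84% in either direction). UT-7 was higher than UCSD-AML1 for 16 and lower for 12, beside 40% and 41.5% (81.5% in either direction). The median difference over the 36 members was -0.31, -0.39 and 0.08 on the log2 scale, beside 0.01, -0.05 and 0.00 over all genes.

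The widest gap was RAD51D, at 5.41 ± 0.977 CPM for TF-1, 17.5 ± 1.51 for UT-7 and 25.3 ± 1.02 for UCSD-AML1, a TF-1 minus UCSD-AML1 difference of -2.22 ± 0.10 (adjusted p = 1.17e-22). XRCC2 stood at 8.78 ± 1.44, 28.3 ± 1.75 and 14.1 ± 1.20 CPM in the same order, and TF-1 minus UT-7 was -1.69 ± 0.11 (adjusted p = 4.78e-17). RAD52 itself stood at 9.95 ± 1.19 CPM for TF-1, 16.6 ± 0.752 for UT-7 and 15.6 ± 1.12 for UCSD-AML1, with a log2 difference of -0.74 ± 0.09 for TF-1 minus UT-7 and 0.10 ± 0.08 for UT-7 minus UCSD-AML1, given with no test. BARD1 and BRCA2 were highest in UCSD-AML1: BARD1 held 44.4 ± 3.08 CPM there, and 15.1 ± 1.48 (TF-1) and 19.4 ± 0.956 (UT-7) elsewhere. BRCA2 likewise held 47.3 ± 1.59 CPM, with 23.1 ± 2.39 (TF-1) and 17.8 ± 1.57 (UT-7) elsewhere. CHEK2 ran the other way, at 62.5 ± 1.43 CPM for TF-1, 47.95 ± 1.20 for UT-7 and 40.2 ± 2.29 for UCSD-AML1.

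Per kilobase of transcript, CHEK2 led in TF-1 vehicle at 34.4 ± 0.79 CPM per kb, RAD51AP1 in UT-7 vehicle at 40.6 ± 0.92 and FANCI in UCSD-AML1 vehicle at 34.2 ± 0.42. NBN and CHEK1 were among the first 4 in each line. BRCA2 was the lowest member in TF-1, at 2.1 ± 0.22 CPM per kb, and in UT-7, at 1.62 ± 0.14, and FANCM in UCSD-AML1, at 3.6 ± 0.39.

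**Figure D4:**
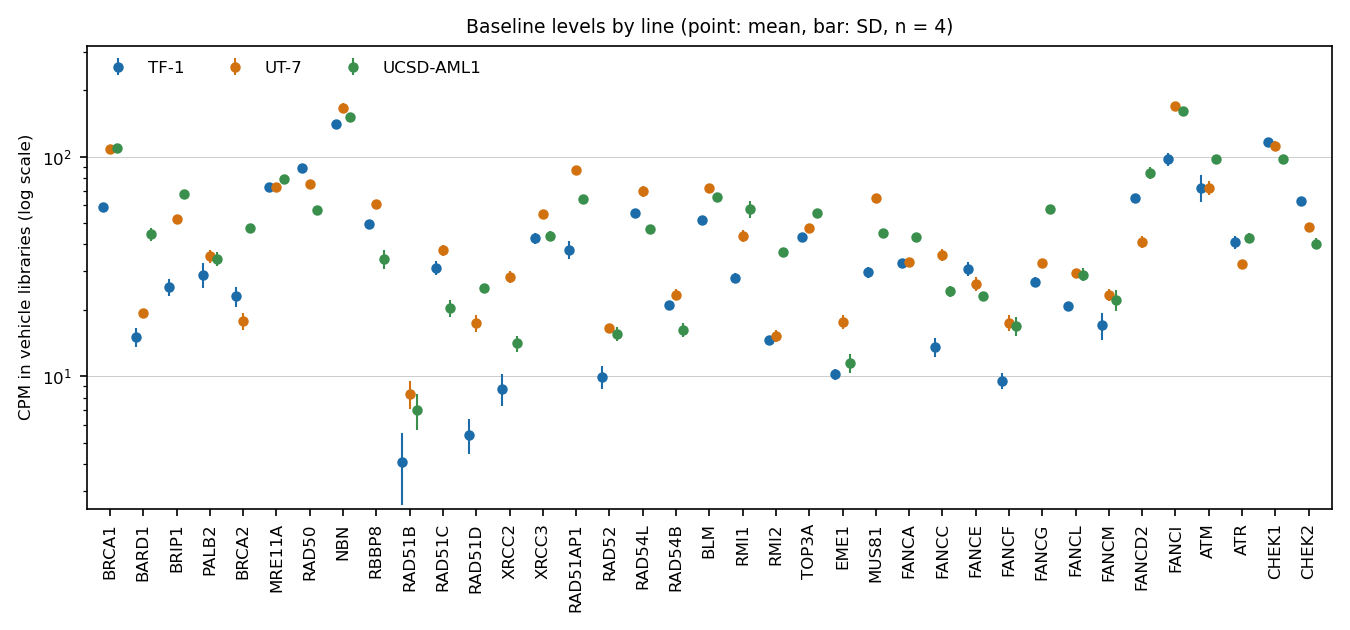
Mean CPM (log y axis) of the 37 genes in the 4 vehicle libraries of each line, with SD as bars. TF-1 points lie below those of the other lines for RAD51D, XRCC2, FANCC and RAD52, and UCSD-AML1 points lie above for BARD1, BRCA2, RMI2 and FANCG.

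Lists of related genes are given by their counts, without a test of any list. The shares of all genes called higher and lower were 26.7% and 29.3% in TF-1, 22.5% and 23.3% in UT-7, and 19.1% and 21.3% in UCSD-AML1. Of 42 tested genes of homologous recombination and the Fanconi pathway outside the list, 13 rose and 11 fell in TF-1, 4 rose and 17 fell in UT-7, and 7 rose and 13 fell in UCSD-AML1. Their medians were 0.08, -0.10 and -0.03. EXO1, a resection nuclease, fell in all 3 lines, at -0.50 ± 0.05, -0.83 ± 0.05 and -0.28 ± 0.05.

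Among these genes are 5 that act with BRCA1 in a complex that binds ubiquitin, set out together after their values were seen. UIMC1, which brings the complex to ubiquitin chains at breaks, rose in all 3 lines, at 0.61 ± 0.05, 0.53 ± 0.06 and 0.55 ± 0.05. BRCC3, its deubiquitinase, fell in all 3, at -0.97 ± 0.06, -0.48 ± 0.06 and -0.33 ± 0.06. BRE, the scaffold next to it, fell too, at -0.22 ± 0.06, -0.25 ± 0.08 and -0.26 ± 0.06. The remaining subunit genes passed in no line, FAM175A at 0.16 ± 0.08, 0.26 ± 0.11 and 0.16 ± 0.08, and BABAM1 at 0.10 ± 0.05, 0.06 ± 0.05 and 0.09 ± 0.05.

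Of 11 genes of end joining, which rejoins breaks without a template, 7 rose and none fell in TF-1, 4 rose and none fell in UT-7, and 5 rose and 1 fell in UCSD-AML1. LIG3, the ligase of the alternative route, rose in all 3 lines, at 0.61 ± 0.05, 0.73 ± 0.05 and 0.45 ± 0.05. POLQ, its polymerase, rose as well, at 0.51 ± 0.08, 0.33 ± 0.08 and 0.28 ± 0.07. Of 17 genes of checkpoint signalling and the break response, 5 rose and 6 fell in TF-1, 5 rose and 9 fell in UT-7, and 3 rose and 2 fell in UCSD-AML1. TIMELESS, which protects stalled forks, rose in all 3 lines, at 0.39 ± 0.04, 0.27 ± 0.04 and 0.34 ± 0.04.

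Genes of the cell cycle were also called. Of 38 genes of G1/S and DNA replication, 33 fell and 1 rose in UT-7, with a median of -0.29, while 26 of 33 genes of G2/M and mitosis rose and 1 fell, with a median of 0.28. In TF-1, 15 G1/S genes rose and 15 fell, and 15 G2/M genes rose and 5 fell. In UCSD-AML1, 11 G1/S genes rose and 13 fell, and 2 G2/M genes rose and 13 fell. MCM3, a subunit of the replicative helicase, fell in UT-7, at -0.65 ± 0.03, and the mitotic cyclin gene CCNB1 rose there by 0.46 ± 0.04. The part of the cell cycle genes in the members' responses was not tested.

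Targets of p53, the factor that many kinds of DNA damage switch on, moved both ways. Of 23 tested, 9 rose and 7 fell in TF-1, 8 rose and 7 fell in UT-7, and 8 rose and 1 fell in UCSD-AML1. CDKN1A, the inhibitor of cyclin-dependent kinases, fell in TF-1, at -1.07 ± 0.12 (adjusted p = 1.05e-09), and in UT-7, at -0.42 ± 0.07 (adjusted p = 8.1e-06), and stood at -0.09 ± 0.06 in UCSD-AML1. DDB2, a damage recognition gene, rose in all 3 lines, at 0.84 ± 0.08, 0.62 ± 0.09 and 0.50 ± 0.07. BAX, SESN1, DDB2 and CCNG1 were called higher and RRM2B lower in all 3 lines.

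**Figure D5:**
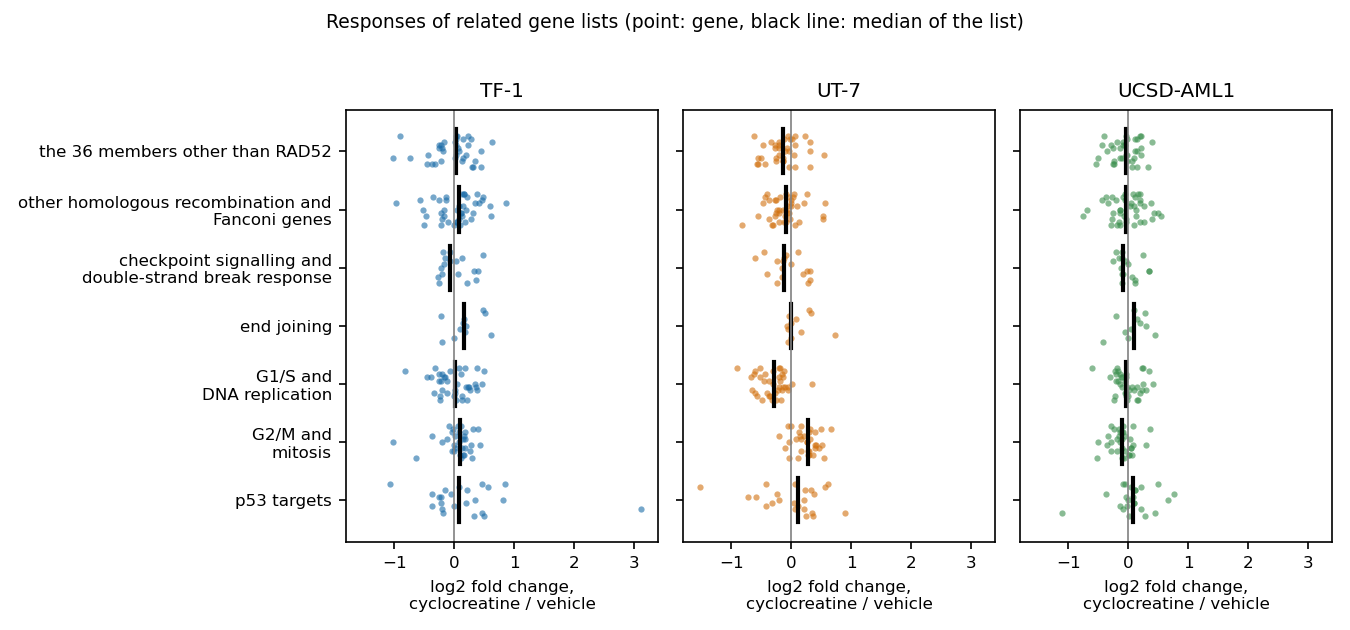
Log2 fold change of cyclocreatine over vehicle (x axis) of each gene in 7 lists, by line, with black lines at list medians. Most G1/S points lie to the left and most G2/M points to the right of 0 in UT-7, at medians of -0.29 and 0.28, and the 36 members spread to both sides in each line.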

How the data were processed

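RNA sequencing of 3 cell lines under 2 treatments gave 24 libraries. The authors deposited 1 table of raw counts per gene symbol for each library, made with FastQC, TopHat2 and RSEM on GRCh37/hg19, per the submitters' processing notes; no versions or strand setting were stated. Groups came from the sample labels.

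Genes were kept by edgeR 4.0.16 filterByExpr (minimum count 10, minimum total 15), scaled by TMM and fitted with the robust quasi-likelihood model over 6 group means in R 4.3.3, with 18 residual degrees of freedom. Each line's treatment effect, the differences of these effects between lines and the vehicle levels were tested, and p-values were adjusted over all 14588 genes with a threshold of 0.05. Standard errors came from the fold change and its F value. Precision follows library totals of 12794998 to 21200662 counts. Promoters came from RefSeq (GRCh38.p14), transcript lengths were medians over a gene's RefSeq-linked GENCODE transcripts, and figures were drawn with matplotlib 3.10.9.

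The members, their roles, the context lists and the markers were chosen with earlier results of these data known. Every member is named. Values in each library are given for RAD52, for members called the same way in all 3 lines or with an absolute log2 fold change of at least 0.5, and for up to 12 members called in a difference between lines; context lists name up to 4 genes each with the smallest p in a line, and exceptions are stated. Alternatives were DESeq2 1.42.0, limma-voom (limma 3.58.1), library totals, no filter, each line fitted alone, a replicate block and leaving out each library. For differences between lines, the fit of lines alone held the lines of the pair together. The statistical scripts were tested on simulated data.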

Additional observations from a re-analysis of the deposited data

Results flagged for a closer look

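In 9 of 222 sets of 4 libraries, 1 library lay far from the other 3, where chance alone gives about 1 in 20. TF-1 cyclocreatine replicate 1 was such a library for BARD1 (5.63 CPM, the others 9.92 to 10.5), RAD51C (31.1 CPM, the others 23.8 to 25.0) and ATR (31.4 CPM, the others 45.6 to 46.5). TF-1 vehicle replicate 1 was low for FANCE (27.4 CPM) and high for FANCM (20.6 CPM). UT-7 vehicle replicate 1 was high for BLM (76.5 CPM), and UT-7 vehicle replicate 2 for TOP3A (49.0 CPM). UCSD-AML1 vehicle replicate 4 was high for XRCC3 (46.8 CPM), and UCSD-AML1 cyclocreatine replicate 2 for RAD52 (31.1 CPM).

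Over the 37 members and 3 pairs of lines, the response to cyclocreatine differed in 32 comparisons, by edgeR's quasi-likelihood test of the difference itself. Those of RAD52 are given as a description only. Of all genes tested, 27.5% differed for TF-1 minus UT-7, 29.1% for TF-1 minus UCSD-AML1 and 23% for UT-7 minus UCSD-AML1. For TF-1 minus UT-7 the log2 differences were 0.64 for RAD52, 0.50 for XRCC3, 0.39 for CHEK1, 0.36 for RAD54B, 0.34 for FANCE, 0.32 for FANCG, 0.27 for TOP3A, 0.22 for RAD54L, -0.28 for BRCA1, -0.48 for FANCF and -0.52 for XRCC2. For TF-1 minus UCSD-AML1 they were 0.62 for RAD52, 0.37 for RAD51AP1, 0.32 for FANCC, 0.29 for NBN, 0.25 for CHEK1, 0.24 for FANCG, -0.19 for RAD54L, -0.20 for FANCI, -0.42 for FANCF, -0.50 for BRCA1 and -0.88 for XRCC2. For UT-7 minus UCSD-AML1 they were 0.57 for BRCA2, 0.23 for RAD51AP1, -0.20 for TOP3A, -0.22 for BRCA1, -0.23 for FANCI, -0.24 for FANCA, -0.35 for FANCL, -0.37 for FANCE, -0.41 for RAD54L and -0.42 for XRCC3. FANCA (adjusted p = 0.0477) was lost without any 1 of 14 libraries, at adjusted p = 0.0539 to 0.0975, FANCC without any 1 of 8, at 0.056 to 0.122, TOP3A of the last pair without any 1 of 7, at 0.0532 to 0.0861, and FANCF of the second pair without any 1 of 6, at 0.063 to 0.117. FANCF of the first pair was lost without TF-1 cyclocreatine replicate 4 (adjusted p = 0.0541), FANCI of the second without TF-1 vehicle replicate 2 (0.0531) and FANCL without UT-7 cyclocreatine replicate 1 (0.0522).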

How the results depend on the processing

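No member called in a comparison reversed its direction under any alternative run. Fitting each line alone gave 10 members higher in UCSD-AML1 in place of 6. Fitting only the lines of a pair gave 6 response differences between TF-1 and UCSD-AML1 in place of 10, and 19 between UT-7 and UCSD-AML1 in place of 10. Shares of all genes called under these fits, with the replicate block or without 1 library are not given. Changes common to all genes thus cannot be told from changes of the members. The cause was not tested. Leaving out 1 library gave 9 to 13 higher and 10 to 14 lower members in TF-1, 4 to 5 and 15 to 17 in UT-7, and 4 to 6 and 8 to 10 in UCSD-AML1. It gave 9 to 14 response differences between TF-1 and UT-7, 7 to 16 between TF-1 and UCSD-AML1 (16 without TF-1 cyclocreatine replicate 1) and 7 to 10 between UT-7 and UCSD-AML1, with 6 to 8 members lower and 1 to 2 higher in all 3 lines. The 1 came from leaving out any of 5 UCSD-AML1 libraries, vehicle replicates 1 and 4 and cyclocreatine replicates 1, 2 and 3, each of which ended the NBN call there. Same-numbered libraries of a line did not deviate together (correlations from -0.05 to 0.07), so the numbers were not taken as pairs; with the replicate block 9 members were lower in UCSD-AML1 in place of 11, without ATM and CHEK1, and 7 response differences stood between UT-7 and UCSD-AML1 in place of 10, without BRCA1, TOP3A and FANCA. With TF-1 fitted alone the calls of BRIP1, MRE11A, RMI1, TOP3A and FANCC there were lost (adjusted p = 0.0654 to 0.161). Scaling by library totals moved the median of all genes in TF-1 from -0.01 to -0.09. Depth limited RAD51B and XRCC2 in TF-1 most, at 260 and 277 counts over 4 libraries.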
